A study of Mus musculus with 21 samples.

Results

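AMP-activated protein kinase (AMPK) is built from 3 subunits, a catalytic alpha, a scaffolding beta and a regulatory gamma subunit, which 7 genes encode in the mouse. All 7 symbols, Prkaa1, Prkaa2, Prkab1, Prkab2, Prkag1, Prkag2 and Prkag3, were found by name among the 53738 gene symbols of the expression table. Each had a mean of at least 1 TPM, a length-corrected unit of transcript abundance that sums to nearly the same total in every library, and was among the 11819 genes tested. Transcripts were quantified by bulk RNA-seq in the quadriceps muscle of wild-type male C57/Bl6 mice, aged 22 to 26 weeks at sacrifice, in 7 groups of 3 libraries each. Sedentary mice were the baseline control, and the sources do not state whether they had run on the treadmill before. Untrained mice ran a treadmill bout to exhaustion, which the methods call the last test, and were sacrificed 0 h, 6 h or 72 h later. Trained mice had voluntary access to running wheels for 12 weeks before the same bout and the same sacrifice times. The sources do not tie a library to a named animal, so p-values measure the spread between libraries.

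AMPK senses a falling energy charge. AMP and ADP bind the gamma subunit, which favours phosphorylation of the alpha subunit by upstream kinases such as LKB1, and the beta subunit holds the complex together and binds glycogen. Skeletal muscle is known for complexes with the alpha2 and beta2 subunits, and the gamma3 subunit (Prkag3) is largely restricted to fast glycolytic muscle. In exercise the active kinase phosphorylates enzymes and regulators of fat oxidation, glucose uptake and mitochondrial gene expression, a regulation of protein activity that transcript levels do not show.

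All 25037 values above 0 were identical between replicate 1 of untrained 0 h and replicate 1 of trained 0 h, so the table holds 20 distinct libraries. It is not known to which group the shared library belongs. Log2 differences of single subunits that rest on 0 h are therefore also given with it left out of both groups. The same holds for the share differences of 6 h from 0 h. The F test, the group means and shares, the counts of passing subunits and the share tests between training states hold it in both groups. TPM values keep no depth, so the depth of a library is unknown and precision rests on the spread between libraries. Genes of the mitochondrial genome held 37.7% to 48.0% of the TPM of a library, and 37.7% to 40.6% at 0 h. TPM was also rescaled without these genes and the 10 genes with the highest mean. Against sedentary muscle, the median log2 fold change of all tested genes then moved by -0.16 for untrained and -0.17 for trained 0 h. For trained 6 h against 0 h it moved by 0.18. After the rescaling 14443 genes were tested rather than 11819. These shifts, and the adjusted p-values after the rescaling, therefore also rest on a changed set of genes. After median-of-ratios scaling, with 11812 genes tested, the shifts were -0.11, -0.14 and 0.15 in the same order. The muscle genes Acta1, Ckm, Mb, Ttn and Des together held 33773 to 43849 TPM, and all of them were present in every library. Of the neutrophil markers 0 of 5 reached a mean of 1 TPM, and Ly6g was at most 0.0177 TPM.

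The promoters of Prkag3, Prkag2 and Prkaa1 are shown because these 3 genes had the largest changes among the subunits. The RefSeq promoter table (GRCm38.p6) held 9 start sites for the 7 genes, and each window was found exactly 1 time in GRCm39. The 250 bases before the start site are given on the strand of the gene, 5′ to 3′. Capitals mark matches to any of 8 motifs searched on both strands, namely the myogenic E-box CAGCTG, the other E-box CACGTG, the cAMP response element TGACGTCA, the nuclear receptor element AAGGTCA, the heat shock core GAANNTTC, the GC box GGGCGG, the TATA box TATAAA and the box CCAAT. The Prkag2 window is the one of 3 start sites that held AAGGTCA, and gene-level values do not tell which start site is used.
Prkag3, chr1:74788115-74788364, minus strand: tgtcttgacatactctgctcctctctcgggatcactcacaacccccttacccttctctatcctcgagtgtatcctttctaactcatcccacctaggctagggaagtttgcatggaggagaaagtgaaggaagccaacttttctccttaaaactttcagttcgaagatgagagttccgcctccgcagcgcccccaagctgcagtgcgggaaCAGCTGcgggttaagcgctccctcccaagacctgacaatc
Prkag2, the second start site, chr5:25200752-25201001, minus strand: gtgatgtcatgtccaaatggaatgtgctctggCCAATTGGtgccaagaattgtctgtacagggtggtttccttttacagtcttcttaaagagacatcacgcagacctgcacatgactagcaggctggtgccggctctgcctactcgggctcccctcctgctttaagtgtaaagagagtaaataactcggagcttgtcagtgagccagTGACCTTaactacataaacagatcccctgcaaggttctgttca
Prkaa1, chr15:5173093-5173342, plus strand: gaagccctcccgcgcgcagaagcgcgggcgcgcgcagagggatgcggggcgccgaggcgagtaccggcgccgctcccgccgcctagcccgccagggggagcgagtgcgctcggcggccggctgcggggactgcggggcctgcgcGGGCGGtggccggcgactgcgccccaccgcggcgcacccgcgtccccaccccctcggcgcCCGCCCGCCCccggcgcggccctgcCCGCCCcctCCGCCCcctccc
The Prkag3 promoter held CAGCTG, an E-box of the kind bound by myogenic factors, at position -40, and 16.3% of 32851 RefSeq promoter windows of 300 bases held this motif. The Prkag2 window held TGACCTT, the reverse complement of the estrogen-related receptor element AAGGTCA, at position -43, a motif held by 4.718% of all windows. That share is per window, whereas this window was picked among 3 for holding the motif. The same window also held CCAAT in both orientations at -218 and -215, where the matches overlap, and CCAAT was present in 37.41% of windows. The Prkaa1 promoter held GGGCGG or its complement at 5 positions, of which those at -46 and -42 overlap, in sequence of 85.2% G and C, and 35.66% of windows held this GC box. Of the motifs without a match in these 3 sequences, CACGTG was held by 7.15% of all windows, TGACGTCA by 1.79%, GAANNTTC by 7.86% and TATAAA by 13.62%. These matches are letters in a window and were not tested as binding sites.

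In levels per transcript length, Prkab2 was the most abundant subunit transcript, followed by Prkag3, Prkaa2 and Prkag1. Over the 20 distinct libraries the mean was 69.1 TPM for Prkab2, 42.1 for Prkag3, 22.3 for Prkaa2 and 19.0 for Prkag1. It was 5.73 TPM for Prkag2, 3.81 for Prkab1 and 2.36 for Prkaa1. Prkaa2 thus made up 91.7% ± 0.907 (SD, n = 3) of the alpha TPM of sedentary muscle, Prkab2 94.8% ± 1.07 of the beta TPM and Prkag3 62.9% ± 1.97 of the gamma TPM. Prkag2 varied most between libraries, 2.89-fold from 3.05 to 8.83 TPM, followed by Prkag3, 2.37-fold from 25.5 to 60.4 TPM. Prkab2 varied 1.31-fold, from 58.0 to 76.1 TPM.

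**Figure D1:**
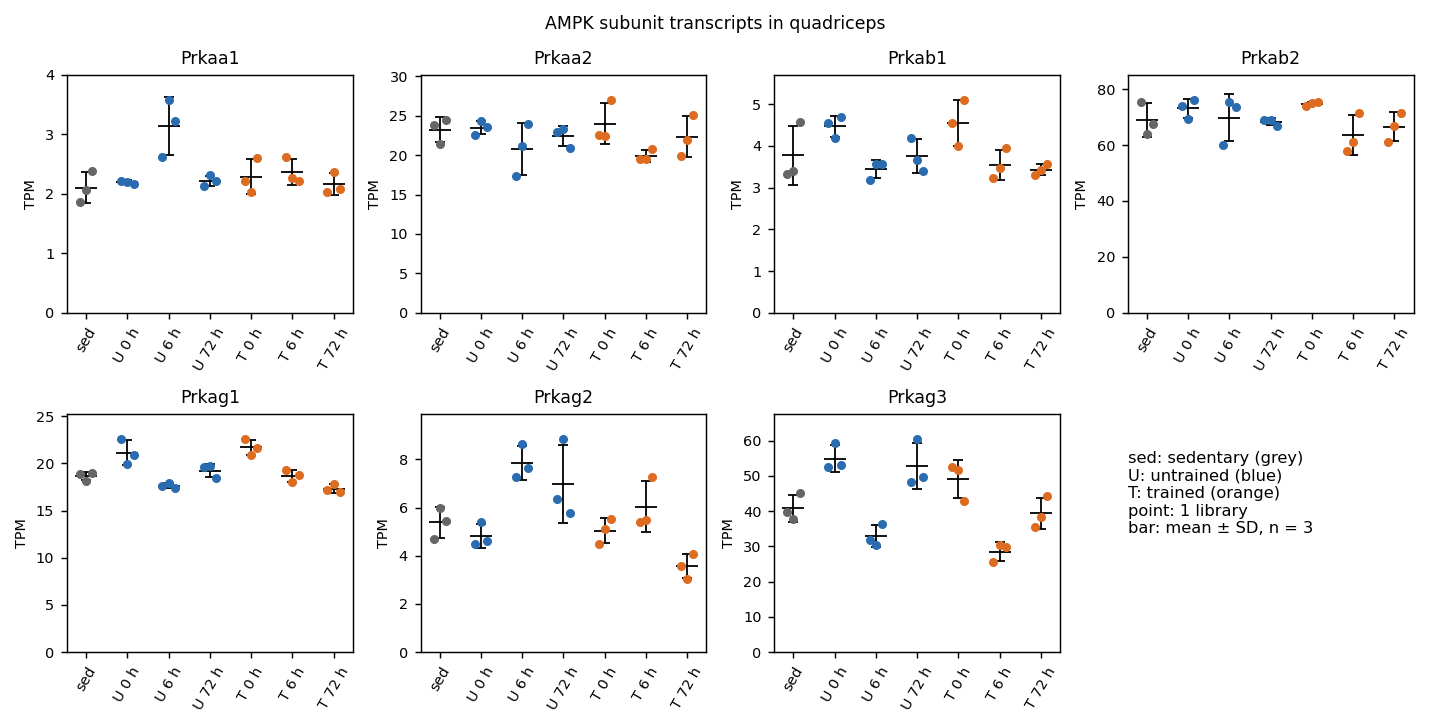
TPM (linear axis from 0) of the 7 AMPK subunit genes by group, for sedentary (sed), untrained (U) and trained (T) muscle, with the hours since the bout. Each point is a library and the bar gives the mean ± SD (n = 3). The Prkag3 libraries at 6 h lie below those at 0 h in both training states, and the 3 Prkag2 libraries of trained 72 h are the lowest of all.

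Differences among the 7 groups were tested with limma on log2(TPM + 0.5), with p-values adjusted over all tested genes (Benjamini-Hochberg). In the F test over all groups, 5 of 7 subunit genes had an adjusted p below 0.05, against 34.6% of all tested genes. This test counted the shared library in both groups that hold it. The adjusted p was 8.2e-05 for Prkag3, 0.0010 for Prkag1, 0.0013 for Prkag2, 0.019 for Prkaa1 and 0.042 for Prkab1. Prkaa2 (adjusted p = 0.309) and Prkab2 (adjusted p = 0.343), the abundant catalytic and scaffolding subunits, did not pass. Prkag1 and Prkab1 no longer passed after the rescaling, with adjusted p = 0.060 and 0.381. Without untrained 6 h replicate 2, Prkaa1 (adjusted p = 0.112) and Prkab1 (0.054) did not pass, and without untrained 6 h replicate 3 their adjusted p was 0.084 and 0.056.

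In 13 pairwise comparisons, calls needed both an adjusted p below 0.05 and a 1.5-fold difference, upward or downward. Of the subunits, Prkag3 and Prkag2 were called, and the other 5 in none of the comparisons. In at least 1 of the 13 comparisons 13.7% of all tested genes were called. Against sedentary muscle 0 of 7 subunits were called in untrained 0 h, trained 0 h, untrained 6 h, trained 6 h, untrained 72 h and trained 72 h, where 3.59%, 3.74%, 4.42%, 3.85%, 0.00846% and 0.169% of all tested genes were called. Between 6 h and 0 h, 2 of 7 were called in untrained muscle (4.64% of all genes) and 1 of 7 in trained muscle (6.46%). Between 72 h and 6 h, 1 of 7 was called in untrained muscle (4.04%) and 1 of 7 in trained muscle (3.48%). Between trained and untrained muscle, 0 of 7 were called at 0 h (0% of all genes), 0 at 6 h (2.01%) and 1 at 72 h (0.245%). A comparison between untrained and trained muscle at 0 h includes the shared library in both groups. In it, limma gave 143 genes an unadjusted p below 0.05, and no subunit was among them. With that library left out, the log2 differences of the subunits in this comparison were -0.25 for Prkag3 and between 0.03 and 0.08 for the others, each with an adjusted p of 1.

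**Figure D2:**
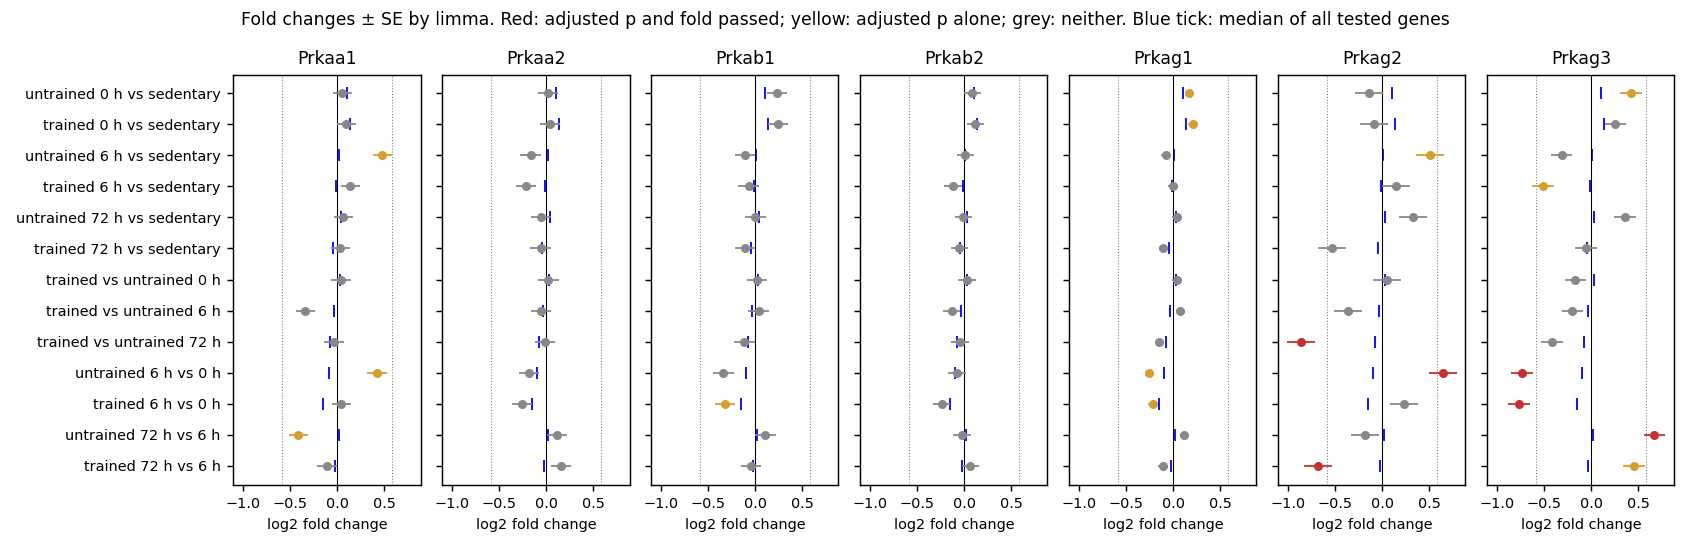
Log2 fold change ± SE of the 7 subunit genes in the 13 comparisons, by limma on log2(TPM + 0.5), with dotted lines at a 1.5-fold difference. Red points were called, yellow points passed the adjusted p alone, grey points passed neither, and the blue ticks give the median of all tested genes. Red points are found for Prkag2 and Prkag3 alone.

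Prkag3, located at chr1:74775818-74788380 on the minus strand of GRCm39 with 14 exons in its canonical transcript, encodes the gamma3 subunit. The sedentary libraries held 39.9, 37.6 and 45.1 TPM. In untrained muscle the values were 52.6, 59.3 and 53.0 TPM at 0 h, 31.8, 30.4 and 36.3 TPM at 6 h, and 48.2, 60.4 and 49.8 TPM at 72 h. In trained muscle they were 52.6, 51.8 and 42.8 TPM at 0 h, 25.5, 30.5 and 29.7 TPM at 6 h, and 35.6, 38.3 and 44.2 TPM at 72 h. Within each training state, every 6 h library was below every 0 h and every 72 h library. From 0 h to 6 h, Prkag3 fell by 0.74 ± 0.12 (SE) on the log2 scale in untrained muscle (limma, adjusted p = 0.00053) and by 0.77 ± 0.12 in trained muscle (adjusted p = 0.00027). Left without the shared library, the falls were by 0.77 (adjusted p = 0.0026) and by 0.72 (adjusted p = 0.0030). After the rescaling they were by 0.64 and by 0.56, and the trained value then passed the adjusted p (0.0033) but not the fold threshold. These are changes between groups of different mice at each time.

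From 6 h to 72 h, Prkag3 rose by 0.67 ± 0.12 (log2) in untrained muscle (limma, adjusted p = 0.0014). In trained muscle the difference was 0.46 ± 0.12 (adjusted p = 0.019), under the fold threshold. Without untrained 72 h replicate 2, the highest library, the untrained rise was 0.58 (adjusted p = 0.011), under the fold threshold. The trained difference had an adjusted p of 0.094 without trained 6 h replicate 1, 0.051 without trained 72 h replicate 2 and 0.098 without trained 72 h replicate 3. Against sedentary muscle, trained 6 h differed by -0.51 on the log2 scale (adjusted p = 0.0097, 10.4% of all genes with an adjusted p below 0.05) and did not overlap with it, with an adjusted p of 0.054 without trained 6 h replicate 1. Untrained 6 h differed by -0.31 (adjusted p = 0.110), also without overlap. Untrained 0 h was higher by 0.42 (adjusted p = 0.035), but the adjusted p was 0.076 without the shared library, and 0.064 to 0.147 without any of the 3 untrained 0 h replicates, sedentary replicate 1 or sedentary replicate 2. After the rescaling the difference was 0.25 (adjusted p = 0.239). Trained 0 h differed from sedentary muscle by 0.26 (adjusted p = 0.161), and by 0.21 without the shared library. The order of the group means ran from untrained 0 h (54.9 TPM ± 3.76 SD) over untrained 72 h (52.8 ± 6.61), trained 0 h (49.1 ± 5.41), sedentary (40.9 ± 3.82), trained 72 h (39.4 ± 4.40) and untrained 6 h (32.8 ± 3.12) to trained 6 h (28.6 ± 2.67). Neighbours did not differ by more than the larger SD between untrained 0 h, untrained 72 h and trained 0 h, and between sedentary and trained 72 h.

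The annotation places exons of Cyp27a1, on the opposite strand, over 16.8% of the exon bases of Prkag3 but over 0% of its canonical transcript. The sources state no strand setting for the counting, so reads of the shared bases cannot be told apart. Cyp27a1 held 27.3 to 41.1 TPM, and from 0 h to 6 h it changed in untrained muscle by -0.29 (adjusted p = 0.068) and in trained by -0.20 (adjusted p = 0.148). Its part in the Prkag3 values was not tested. Fast fibre markers, all 10 of which exceeded a mean of 1 TPM, summed to 99629 to 117916 TPM in untrained 0 h and 98744 to 105959 TPM in untrained 6 h. In trained muscle their sum was 99629 to 112608 TPM at 0 h, 86666 to 93733 TPM at 6 h and 92501 to 94543 TPM at 72 h, and 93883 to 108127 TPM in sedentary muscle. In untrained 72 h it was 99713 to 106862 TPM. The 8 slow fibre markers summed to 592 to 1143 TPM in sedentary muscle, to 307 to 441, 285 to 434 and 399 to 579 TPM in untrained muscle at 0 h, 6 h and then 72 h, and to 338 to 797, 425 to 1262 and 323 to 487 TPM in trained muscle. The part of fibre composition in the Prkag3 values was not tested. In bulk muscle, fewer fibres of a type and less RNA per fibre cannot be told apart.

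Prkag2 (chr5:25067728-25306439, minus strand, 14 exons) encodes the gamma2 subunit, known from the heart, where mutations cause a glycogen storage cardiomyopathy. Sedentary libraries held 4.71, 5.98 and 5.46 TPM. In untrained muscle the values were 4.49, 5.41 and 4.60 TPM at 0 h, 7.28, 8.63 and 7.63 TPM at 6 h, and 6.35, 8.83 and 5.75 TPM at 72 h. In trained muscle they were 4.49, 5.10 and 5.55 TPM at 0 h, 5.39, 5.47 and 7.26 TPM at 6 h, and 3.59, 3.05 and 4.07 TPM at 72 h. Every untrained 6 h library was above every sedentary and 0 h library, and every trained 72 h library was below all the other libraries. From 0 h to 6 h, Prkag2 rose by 0.65 ± 0.15 (SE, log2) in untrained muscle (limma, adjusted p = 0.010), opposite in direction to Prkag3 in the same libraries. Without untrained 6 h replicate 2 this was 0.58, under the fold threshold, and without the shared library it was 0.60 (adjusted p = 0.048). In trained muscle the difference was 0.23 (adjusted p = 0.275), and 0.16 without the shared library, with overlap between the groups. The difference between trained and untrained muscle at 6 h was -0.36 (adjusted p = 0.202). Against sedentary muscle, untrained 6 h was higher by 0.51 (adjusted p = 0.042, 9.47% of all genes with an adjusted p below 0.05) and after the rescaling by 0.46 (adjusted p = 0.077). That difference did not pass without any of the 3 sedentary replicates, without untrained 6 h replicate 2 or without untrained 6 h replicate 3, where the adjusted p was 0.052 to 0.158.

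Trained and untrained muscle differed in Prkag2 at 72 h. Trained muscle held 3.57 TPM ± 0.510 (SD, n = 3) and untrained muscle 6.98 ± 1.63, a log2 difference of -0.86 ± 0.15 (SE, limma, adjusted p = 0.017), and all 3 trained libraries lay below all 3 untrained libraries. With an adjusted p alone, 1 of 7 subunits and 0.415% of all genes passed in this comparison. The call was lost after the rescaling (-0.80, adjusted p = 0.051), and when untrained 72 h replicate 1, untrained 72 h replicate 2 or trained 72 h replicate 2 was left out, where the log2 difference stayed between -0.98 and -0.69 and the adjusted p reached 0.128. From 6 h to 72 h, Prkag2 fell by 0.68 ± 0.15 in trained muscle (adjusted p = 0.0084), a fall by 0.55 without trained 6 h replicate 3 and by 0.58 without trained 72 h replicate 2, both under the fold threshold. Untrained muscle differed by -0.18 between these times (adjusted p = 0.558). Whether the change from 6 h to 72 h differed between training states was not tested. Neither 72 h group differed from sedentary muscle past the threshold, with log2 differences of -0.53 in trained (adjusted p = 0.148) and 0.33 in untrained muscle (adjusted p = 0.843). The opposite-strand transcript 2900005J15Rik covers 33.0% of the canonical Prkag2 transcript in the annotation and has no row in the table. Reads of the shared bases cannot be told apart from those of Prkag2.

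Prkag1 (chr15:98710177-98729434, minus strand, 12 exons) encodes gamma1, the gamma subunit most tissues use. Values were 18.9, 18.2 and 18.9 TPM in sedentary muscle. They were between 20.0 and 22.5 TPM in both 0 h groups, above all sedentary libraries, and between 17.4 and 17.9 TPM in untrained 6 h. From 0 h to 6 h, Prkag1 fell by 0.25 ± 0.05 (SE, log2) in untrained (limma, adjusted p = 0.0043) and by 0.21 ± 0.05 in trained muscle (adjusted p = 0.0079). Against sedentary muscle it was higher by 0.17 in untrained (adjusted p = 0.0499, barely under the threshold) and by 0.21 in trained muscle at 0 h (adjusted p = 0.016). The median of all tested genes moved by 0.10 and by 0.13 in the same comparisons. Without the shared library the 0 h differences from sedentary muscle were 0.13 (adjusted p = 0.199) and 0.19 (adjusted p = 0.044), and those of 6 h from 0 h were -0.20 (adjusted p = 0.023) and -0.19 (adjusted p = 0.024). After the rescaling both 0 h differences were near 0 (0.01 and 0.03), the trained 6 h difference was -0.01 and the untrained one -0.15 (adjusted p = 0.039). After median-of-ratios scaling the untrained 6 h difference was -0.16 (adjusted p = 0.066). B130046B21Rik, a noncoding gene on the opposite strand with 27.2 to 42.1 TPM, covers 63.6% of the canonical Prkag1 transcript. It changed by -0.29 (adjusted p = 0.033) in untrained and by -0.24 (adjusted p = 0.044) in trained muscle from 0 h to 6 h. Reads of the shared bases cannot be told apart, so Prkag1 values are uncertain, and the part of B130046B21Rik in its changes was not tested.

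Prkaa1 (chr15:5173186-5211750, plus strand, 9 exons) encodes alpha1, the catalytic subunit found in most cell types. The sedentary libraries held 1.86, 2.07 and 2.38 TPM. In untrained muscle the values were 2.22, 2.20 and 2.17 TPM at 0 h, 2.62, 3.57 and 3.23 TPM at 6 h, and 2.13, 2.31 and 2.21 TPM at 72 h. In trained muscle they were 2.22, 2.03 and 2.61 TPM at 0 h, 2.61, 2.26 and 2.22 TPM at 6 h, and 2.03, 2.37 and 2.08 TPM at 72 h. The untrained 6 h libraries were the highest of all, replicate 1 by less than 0.01 TPM over trained 6 h replicate 1, and the libraries of the other groups lay within 1.86 to 2.61 TPM. Prkaa1 was higher in untrained 6 h than in sedentary muscle by 0.48 ± 0.10 (SE, log2, limma, adjusted p = 0.0065) and than at 0 h by 0.42 (adjusted p = 0.014), and fell by 0.41 from 6 h to 72 h (adjusted p = 0.017). All 3 values were under the fold threshold. Without the shared library the difference from 0 h was 0.43 (adjusted p = 0.048). Without untrained 6 h replicate 2 it had an adjusted p of 0.055, and that from 72 h did not pass without untrained 6 h replicate 2 or 3 or untrained 72 h replicate 1 or 3 (adjusted p of 0.053 to 0.080). They understate the change, as 0.5 TPM was added to a gene near 2 TPM. Trained 6 h muscle differed from untrained 6 h muscle by -0.34 (adjusted p = 0.076). The difference passed after median-of-ratios scaling (-0.31, adjusted p = 0.032), but not in 9 of 11 alternatives, with an adjusted p of up to 0.3765. With single libraries left out it ran from -0.45 to -0.25, with an adjusted p of 0.013 to 0.301.

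Markers of cells other than muscle fibres were summed in the same libraries. The 8 macrophage markers, 7 of which reached a mean of 1 TPM, summed to 38.3 to 80.4 TPM in untrained 6 h and 61.5 to 66.1 TPM in untrained 72 h. They summed to 42.8 to 47.2 TPM in sedentary muscle, 54.0 to 59.6 TPM in untrained 0 h and 35.7 to 52.0 TPM in trained 6 h. The 6 markers of fibro-adipogenic cells, all above a mean of 1 TPM, summed to 179.8 to 433.8 TPM in untrained 6 h and 268.6 to 308.1 TPM in sedentary muscle. The 5 adipocyte markers, 4 of which reached a mean of 1 TPM, summed to 167.0 to 256.8 TPM in untrained 6 h, above all sedentary libraries with 125.2 to 151.2 TPM, and to 182.9 to 301.3 TPM in trained 6 h. The 6 endothelial markers summed to 41.1 to 51.8 TPM in untrained 6 h and 49.6 to 58.7 TPM in sedentary muscle. In untrained 72 h the sums were 273.8 to 344.0 TPM for fibro-adipogenic, 147.4 to 294.9 TPM for adipocyte and 51.9 to 57.4 TPM for endothelial markers. The part of these cells in the Prkaa1 and Prkag2 values was not tested.

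Prkaa2 (chr4:104886845-104967102, minus strand) encodes alpha2, the main catalytic subunit of muscle. Its group means lay between 19.9 TPM ± 0.732 (SD, n = 3) in trained 6 h and 24.0 TPM ± 2.59 in trained 0 h, and no neighbours in the order of groups differed by more than the larger SD. Trained 6 h differed from trained 0 h by -0.26 (log2, adjusted p = 0.088), and by -0.30 without the shared library (adjusted p = 0.114). Prkab2 (chr3:97565509-97581146, plus strand) encodes beta2, the main scaffold in muscle. Its group means lay between 63.5 TPM ± 7.08 in trained 6 h and 74.8 TPM ± 0.621 in trained 0 h, also with no neighbours apart by more than the larger SD, and a log2 difference of -0.24 (adjusted p = 0.070) between these 2 groups, and -0.25 without the shared library (adjusted p = 0.137). Prkab1 (chr5:116151645-116162567, minus strand) encodes beta1, which prevails in liver. It held 4.0 to 5.10 TPM in the 0 h groups and 3.19 to 3.94 TPM in the 6 h groups, and fell by 0.32 from 0 h to 6 h in trained muscle (adjusted p = 0.042). Without the shared library that difference had an adjusted p of 0.108, after the rescaling it was -0.14 (adjusted p = 0.439), and in untrained muscle it was -0.34 (adjusted p = 0.055), or -0.33 without the shared library (adjusted p = 0.158). None of these 3 genes shared exon bases with another annotated gene.

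By an adjusted p alone, 2 subunits passed in untrained 0 h (7.46% of all genes) and 1 in trained 0 h (9.37%) against sedentary muscle. Against the same control, 2 passed in untrained 6 h (9.47%) and 1 in trained 6 h (10.4%). Between 6 h and 0 h, 4 passed in untrained (11.7%) and 3 in trained muscle (25.1%). Between 72 h and 6 h, 2 passed in untrained (9.04%) and 2 in trained muscle (9.21%). The median log2 fold change of the 7 subunits was within 0.10 of that of all tested genes in all 13 comparisons.

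Shares of the subunit genes within a library do not depend on the scaling of the library. The Prkag3 share of the gamma TPM was 67.9% ± 2.01 (SD, n = 3) at 0 h, 56.2% ± 2.91 at 6 h and 66.7% ± 1.5 at 72 h in untrained muscle, and 64.6% ± 2.98, 53.6% ± 2.84 and 65.2% ± 2.38 in trained muscle. The 6 h libraries, at 50.8% to 59.2%, did not overlap with any other library. In an exact permutation test within training states, the difference of 6 h from 0 h was -11.3 percentage points (p = 0.005, the smallest p the 400 arrangements allow, adjusted p = 0.015 over 9 share tests). It was higher at 72 h than at 6 h by 11.1 percentage points (exact permutation p = 0.005, adjusted p = 0.015). Without the shared library it was -11.4 percentage points between 6 h and 0 h (exact permutation p = 0.01, the smallest possible, adjusted p = 0.0225). The difference between trained and untrained muscle across times was -2.49 percentage points (exact permutation p = 0.042, adjusted p = 0.063). The summed gamma TPM was 80.9 ± 3.31 at 0 h and 58.3 ± 2.68 at 6 h in untrained muscle, and 75.8 ± 5.08 and 53.3 ± 2.82 in trained muscle.

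The shares of a library add up to a fixed total, so a lower Prkag3 share means a higher summed share of the other gamma genes. Prkag2 held 5.96% ± 0.382 (SD, n = 3) of the gamma TPM at 0 h and 13.5% ± 1.48 at 6 h in untrained muscle, and 6.71% ± 1.14 and 11.3% ± 1.53 in trained muscle. For Prkag1 the untrained shares were 26.2% ± 2.39 at 0 h and 30.3% ± 1.67 at 6 h, and the trained ones 28.7% ± 2.05 and 35.1% ± 2.85, with the limit on its reads given above. Prkag1 itself did not rise, with means of 21.1 TPM at 0 h and 17.6 at 6 h in untrained muscle. In trained muscle they were 21.7 and 18.7 TPM. Only the Prkag3 share was tested.

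The Prkaa2 share of the alpha TPM was 91.4% ± 0.345 (SD, n = 3) at 0 h, 86.8% ± 1.29 at 6 h and 91.0% ± 0.520 at 72 h in untrained muscle, and 91.3% ± 0.338, 89.4% ± 1.08 and 91.1% ± 1.09 in trained muscle. The difference of 6 h from 0 h was -3.26 percentage points (exact permutation p = 0.005, adjusted p = 0.015) and higher at 72 h than at 6 h by 2.94 percentage points (exact permutation p = 0.01, adjusted p = 0.0225). The former was, without the shared library, -3.43 percentage points (exact permutation p = 0.01, adjusted p = 0.0225). The difference of 6 h from 0 h was -4.59 percentage points in untrained and -1.94 in trained muscle, and these values were not tested against each other. The Prkab2 share of the beta TPM stayed between 93.6% and 95.8% in all libraries. It was higher at 6 h than at 0 h by 0.734 percentage points (exact permutation p = 0.02, adjusted p = 0.036), a call that was lost without the shared library (0.716 percentage points, adjusted p = 0.075). Neither the Prkaa2 share (0.846 percentage points, exact permutation p = 0.1105) nor the Prkab2 share (-0.0808 percentage points, exact permutation p = 0.66425) passed the test between trained and untrained muscle.

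**Figure D3:**
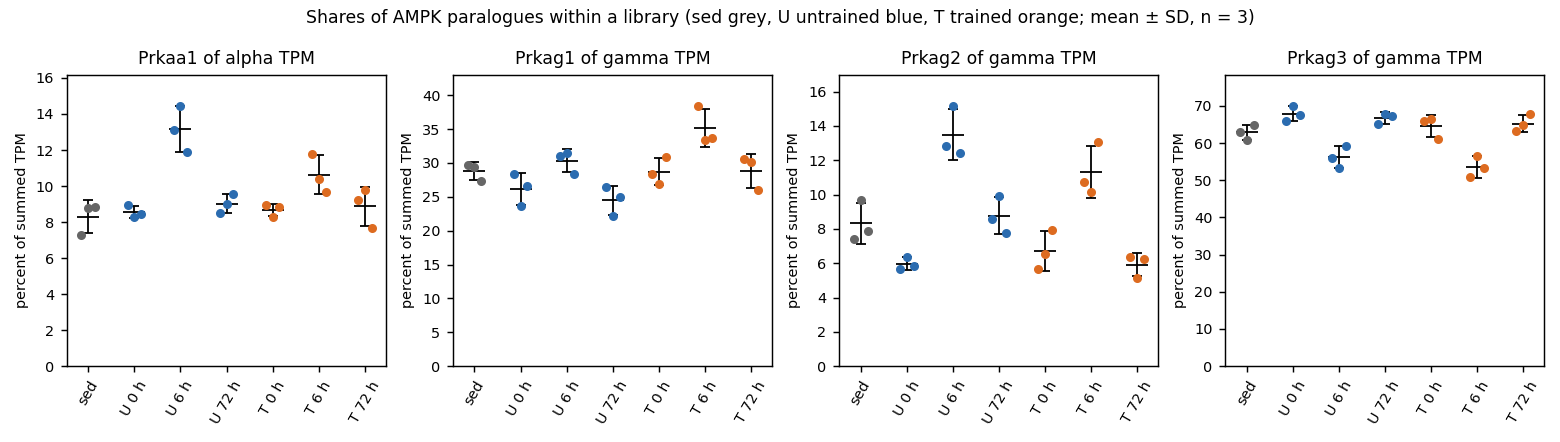
Shares (percent of summed TPM, linear axis from 0) of Prkaa1 in the alpha genes and of Prkag1, Prkag2 and Prkag3 in the gamma genes, by group. Points are libraries and bars the mean ± SD (n = 3). The Prkag3 share is lowest in the untrained and trained 6 h groups, 56.2% and 53.6%.

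Genes whose profile over the 20 distinct libraries was most like that of a subunit were taken among those averaging 5 TPM or more, by Pearson's r of log2(TPM + 0.5). These values are a description, since the libraries share groups and scaling. For Prkag3 they were Cacnb1 (r = 0.93), which encodes the beta subunit of the muscle calcium channel, Egflam (0.93) and Plpp7 (0.91). For Prkaa1 they were Hsf2 (0.92), a heat shock factor, A730017L22Rik (0.89) and Wdr26 (0.88). Prkab2 was most like Phkb (0.92), a subunit of phosphorylase kinase, and Prkaa2 most like Phtf2 (0.92). The highest value for Prkag1 was that of Dnaja3 (0.91), for Prkab1 that of Mrpl49 (0.87) and for Prkag2 that of Hectd2os (0.78), followed by Csrp3 (0.78), a muscle LIM protein. Between subunits, r was highest for Prkab1 and Prkag1 (0.77) and for Prkaa2 and Prkab2 (0.72), and lowest for Prkaa1 and Prkag3 (-0.41). Prkaa1 and Prkag2 had r = 0.54.

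Genes around AMPK were followed in 5 lists. Of the upstream kinases and their partners, 6 of 8 were tested and 1 was called in any comparison, as were 13.7% of all tested genes. The called gene was Cab39, which encodes the MO25 scaffold of the LKB1 complex. Cab39 was 33.5 TPM ± 2.22 (SD, n = 3) in sedentary muscle, 48.3 ± 3.81 in untrained and 47.4 ± 2.60 in trained muscle at 6 h, with log2 differences of 0.52 (limma, adjusted p = 0.00034) and 0.49 (adjusted p = 0.00068). It fell by 0.61 from 6 h to 72 h in trained muscle (adjusted p = 0.00014), by 0.57 after median-of-ratios scaling and by 0.55 after the rescaling, both under the fold threshold. Stk11, which encodes LKB1 itself, had group means between 30.3 TPM ± 3.01 in trained 72 h and 42.6 TPM ± 3.49 in untrained 0 h, and passed in none of the comparisons. Camkk2, the calcium-dependent upstream kinase, had group means between 0.551 and 0.870 TPM and was not tested. In the folliculin complex, a regulator of lysosomal AMPK signalling, 2 of 3 genes were tested and 0 called, against the same 13.7% of all tested genes. Fnip1 had group means between 5.12 TPM ± 0.276 in untrained 72 h and 7.37 TPM ± 0.858 in untrained 6 h.

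All 28 genes that encode AMPK substrates were tested, and 8 were called in at least 1 comparison, which held for 13.7% of all tested genes, among them Hdac4, Nos3, Pfkfb2, Ppargc1a, Srebf1, Tbc1d1 and Txnip. Against sedentary muscle 1 rose in untrained 0 h and 2 in trained 0 h, 2 rose and 1 fell in untrained 6 h, and 2 rose in trained 6 h. In the same comparisons and order, 3.59%, 3.74%, 4.42% and 3.85% of all tested genes were called. Ppargc1a, a coactivator of mitochondrial gene expression, rose from 3.90 TPM ± 0.739 (SD, n = 3) in sedentary muscle to 27.1 ± 5.49 in untrained 6 h and 38.9 ± 9.75 in trained 6 h. The log2 fold changes were 2.65 (limma, adjusted p = 2.8e-07) and 3.15 (adjusted p = 4.0e-07), and trained and untrained muscle differed by 0.50 at 6 h (adjusted p = 0.177). Tbc1d1, a brake on glucose transporter traffic, was 5.86 TPM ± 1.76 in sedentary muscle, 20.3 ± 3.76 in untrained 6 h and 8.59 ± 1.46 in trained 6 h. It rose by 1.73 in untrained 6 h (adjusted p = 5.0e-05), and trained muscle differed from untrained muscle at this time by -1.19 (adjusted p = 0.0032), with no overlap of libraries. Pfkfb2, which makes an activator of glycolysis, rose by 0.92 in trained 6 h (adjusted p = 5.9e-05). Srebf1, a regulator of fat synthesis, fell by 0.68 in untrained 6 h (adjusted p = 0.022). Nos3, the endothelial nitric oxide synthase, was 1.75 TPM ± 0.246 in sedentary muscle, 2.84 ± 0.137 in untrained 0 h and 2.89 ± 0.144 in trained 0 h. In trained 0 h it was higher than in sedentary muscle by 0.60 (adjusted p = 0.0027). That value was 0.58 without the shared library, 0.47 after median-of-ratios scaling and 0.49 after the rescaling, all 3 under the fold threshold. Nos3 fell from 0 h to 6 h by 0.82 in untrained (adjusted p = 0.00015) and by 0.80 in trained muscle (adjusted p = 0.00015), and without the shared library by 0.80 and by 0.79. Txnip, which limits glucose uptake, fell by 0.98 from 6 h to 72 h in trained muscle (adjusted p = 0.029). Acacb, the muscle acetyl-CoA carboxylase and best-known AMPK substrate, was 27.1 TPM ± 2.40 in sedentary muscle and 37.7 ± 2.79 in trained 6 h, a log2 difference of 0.47 (adjusted p = 0.0014) under the fold threshold.

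Of the AMPK-related kinases, which LKB1 also activates, 8 of 13 were tested and Nuak1, Sik1 and Snrk were called in at least 1 comparison, as were 13.7% of all tested genes. Sik1, which restrains CREB coactivators, rose from 1.13 TPM ± 0.517 (SD, n = 3) in sedentary muscle to 17.1 ± 1.91 in untrained 0 h and 20.5 ± 2.80 in trained 0 h, by 3.48 (limma, adjusted p = 3.9e-08) and 3.72 (adjusted p = 1.4e-08) on the log2 scale. Without the shared library these values were 3.39 and 3.76. Snrk rose by 0.59 in untrained 6 h against sedentary muscle (adjusted p = 0.011), with values of 0.57 after median-of-ratios scaling and 0.54 after the rescaling that were under the fold threshold. Nuak1 fell by 0.62 from 6 h to 72 h in trained muscle (adjusted p = 0.0051). Of the enzymes of adenine nucleotides and phosphocreatine, which set the signals that AMPK senses, 15 of 17 were tested and Ampd1, Ampd3 and Ckb were called in at least 1 comparison, against the same 13.7% of all genes. Ampd3, an AMP deaminase, was 2.25 TPM ± 0.282 in sedentary muscle, 6.60 ± 1.64 in untrained 6 h and 3.18 ± 1.14 in trained 6 h. It rose by 1.35 in untrained 6 h (adjusted p = 0.00016) and the difference of trained from untrained muscle at this time was -0.97 (adjusted p = 0.0054). Ampd1, the main muscle AMP deaminase, fell by 0.60 from 0 h to 6 h in trained muscle (adjusted p = 0.00040), where the median of all genes was -0.15. It fell by 0.54 without the shared library, by 0.44 after median-of-ratios scaling and by 0.39 after the rescaling, each under the fold threshold. Its mean was 453 TPM ± 41.1 at 0 h and 297 ± 16.4 at 6 h in trained muscle, and 450 ± 42.2 and 333 ± 17.3 in untrained muscle. Ckb, the brain-type creatine kinase, fell by 0.68 in untrained 6 h (adjusted p = 0.018) and by 0.79 in trained 6 h (adjusted p = 0.0072) against sedentary muscle.

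**Figure D4:**
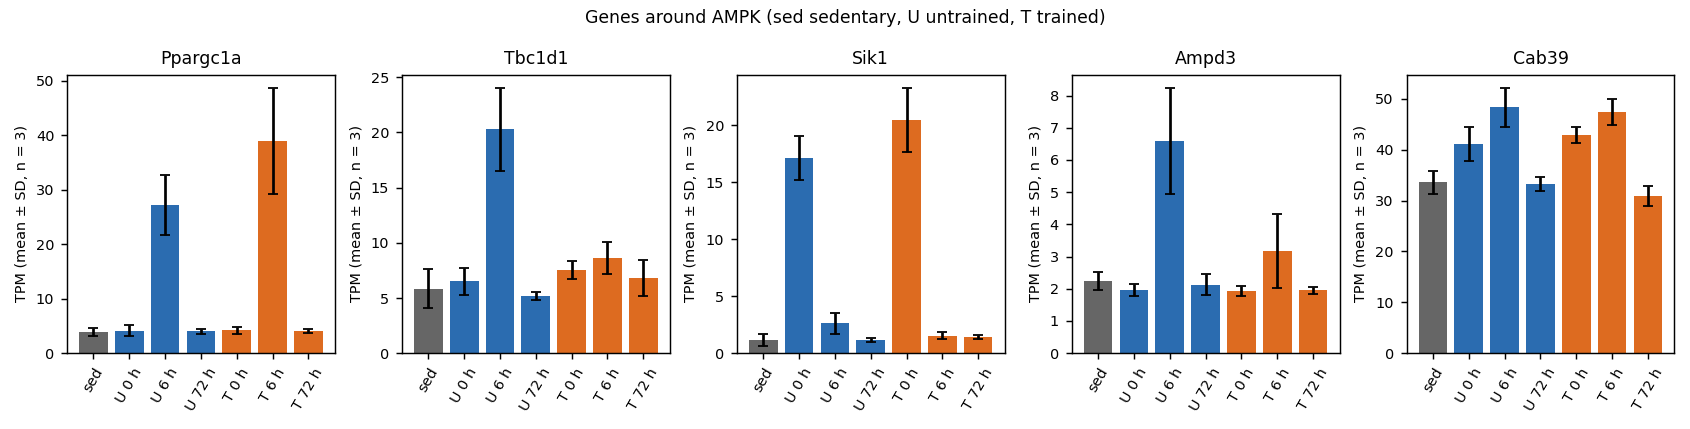
Mean TPM ± SD (n = 3, bars from 0) of 5 genes around AMPK in the 7 groups. Ppargc1a is highest at 6 h in both training states, Tbc1d1 and Ampd3 in untrained 6 h (20.3 and 6.60 TPM), Sik1 at 0 h, and Cab39 at 6 h in both training states.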

How the data were processed

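Gene expression was measured in 21 bulk RNA-seq libraries of quadriceps muscle, 3 in each of 7 groups taken from the sample labels. Total RNA was made into libraries with the TruSeq RNA kit v2. The authors mapped paired-end reads to GRCm39 with STAR (2.7.9 in the submitters' processing notes) and deposited TPM values per gene from Salmon 1.5.0. TPM keeps no sequencing depth. All columns were assigned to a sample. The rule for members was the list of 7 gene symbols.

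Tests used log2(TPM + 0.5) for the 11819 genes averaging 1 TPM or more. One limma fit (3.58.1, R 4.3.3) with a variance trend held the means of all 7 groups and left 14 residual degrees of freedom. The Benjamini-Hochberg adjustment ran over every tested gene, separately for each comparison. Low genes appear less changed than they are, because of the added constant. The thresholds on adjusted p (0.05) and size (1.5-fold) follow the study. Shares of subunits were tested with two-sided exact permutation tests, adjusted over 9 tests. Both procedures were tested on simulated data. Plots come from matplotlib 3.10.9 (Python 3.11.15), and gene positions are those of the GENCODE annotation of GRCm39.

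The members and lists were chosen with earlier results of these data known. All 7 subunits are named. List genes are named when called, with at most 3 per list and comparison whose libraries do not overlap, and Ppargc1a, Acacb, Stk11, Cab39, Camkk2 and Fnip1 are named in any case. A gene of these lists is not reported here. Alternatives were pseudocounts of 0.1 and 1, other filters, median-of-ratios scaling, the rescaling described with the results, other variance models, the replicate number as a block, no fold threshold, and leaving out the shared library or each library in turn.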

Additional observations from a re-analysis of the deposited data

Results flagged for a closer look

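Prkag2 differed between trained and untrained muscle at 72 h, by -0.86 on the log2 scale (limma, adjusted p = 0.017). The result is listed here because the difference between training states was itself tested at this time and passed. The call was lost after the rescaling and in the model of the compared groups alone. With single libraries left out, the limma adjusted p reached 0.128. All 3 trained libraries were below, and 2 of 3 untrained libraries above, all sedentary libraries. In no other subunit did trained and untrained muscle differ at an adjusted p below 0.05 at any of the 3 times in the analysis as reported.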

How the results depend on the processing

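With no threshold on the fold change, 2 subunits were called in untrained 0 h (7.46% of all tested genes) and 1 in trained 0 h (9.37%) against sedentary muscle. At 6 h it was 2 in untrained (9.47%) and 1 in trained muscle (10.4%). For 6 h against 0 h it was 4 in untrained (11.7%) and 3 in trained muscle (25.1%). For 72 h against 6 h it was 2 in untrained (9.04%) and 2 in trained muscle (9.21%). Between trained and untrained muscle at 72 h it was 1 (0.415%). After rescaling without the mitochondrial genome and the 10 highest genes, 0 subunits were called in trained against untrained 72 h and 0 in trained 6 h against 0 h. Of 14443 genes tested after it, 10 were called upward and 9 downward in the former comparison. In the latter, 503 were called upward and 396 downward. When a model held no groups other than those compared, 0 subunits were called in trained against untrained 72 h, 0 in untrained 72 h against 6 h and 0 in trained 72 h against 6 h. In the same order, 7, 64 and 78 of the 11819 tested genes were called upward and 26, 154 and 232 downward. The F test over 7 groups passed 3 subunits after the rescaling, 3 after median-of-ratios scaling and 3 with a mean of at least 5 TPM, where Prkaa1 and Prkab1 were not tested. The share of all genes passing the F test is given for the main fit alone (34.6%). The F test counts of the alternatives can therefore not be set against their own share. Leaving out each library gave 0 to 1 subunits for untrained 6 h against sedentary (1, Prkaa1, without untrained 6 h replicate 1), 0 to 1 for trained against untrained 72 h, 1 to 2 for untrained 6 h against 0 h, 0 to 1 for untrained 72 h against 6 h, 0 to 1 for trained 72 h against 6 h (0 without trained 6 h replicate 3 or trained 72 h replicate 2) and 3 to 5 in the F test. Calls over all tested genes moved as well. Without untrained 6 h replicate 1, 530 were upward and 88 downward for untrained 6 h against sedentary (417 and 105 with all libraries). Without untrained 72 h replicate 2, 2 were upward and 2 downward for trained against untrained 72 h (7 and 22 with all). Without trained 6 h replicate 3, 100 were upward and 270 downward for trained 72 h against 6 h (113 and 298 with all). Other causes were not tested.

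The replicate numbers did not pair the libraries. Residuals of libraries with the same number had a median correlation of 0.018 (-0.115 to 0.134, 62 pairs), and those with different numbers of -0.005 (-0.383 to 0.246, 126 pairs). With the replicate block the share differences kept their size, with adjusted p = 0.0703 for Prkaa2 at 6 h against 0 h (-3.26 percentage points) and 72 h against 6 h (2.94) and for Prkag3 (-11.3 and 11.1), and 0.1055 for Prkab2 at 6 h against 0 h (0.734), since the block leaves few arrangements.

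Without the shared library the Prkab2 share difference at 6 h against 0 h was 0.716 percentage points (adjusted p = 0.075), and leaving out each library gave 0.579 to 0.901, with the call lost in 6 of 12 cases. The Prkab2 share differences that were not called, between trained and untrained muscle (-0.192 to 0.0224) and at 72 h against 6 h (-0.140 to 0.0808), changed sign when single libraries were left out. The Prkag3 difference between trained and untrained muscle ran from -2.98 to -1.92 and passed the adjusted p (0.03 at the lowest) in 4 of 18 cases. For single subunits, only comparisons with an unadjusted limma p below 0.05 in the main fit were followed through the alternatives. Of their values, 500 of 586 kept their direction and their side of the adjusted p, 74 lost and 12 gained it, and 0 changed direction. As these comparisons were picked for lying away from 0, the counts do not describe the other comparisons. TPM without counts gives no counting error for the low genes Prkaa1, Prkab1 and Prkag2.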
